A study of Mus musculus with 6 samples.

Results

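The genes described here are the Wnt ligands, the Frizzled receptors and the R-spondins of the mouse, as read by RNA sequencing of whole testes at day 9. They were picked out by gene symbol and number 33 of the 22274 genes in the deposited table: 19 Wnt ligands, 10 Frizzled receptors and 4 R-spondins. The knockout group (Dcaf2 cKO, 3 libraries) carries floxed Dcaf2 alleles deleted by Stra8-Cre, a recombinase expressed in spermatogonia. The control group (3 libraries) is labelled control with no alleles named. Since Stra8-Cre acts in germ cells, the Sertoli, Leydig, myoid and stromal cells of a knockout testis should still hold an intact Dcaf2 gene. The study asked what DCAF2, the substrate receptor of a CRL4 ubiquitin ligase, does in spermatogenesis. Libraries are numbered within a group, but nothing ties a number to its own mouse. The p-values therefore reflect only how these libraries vary, and that variation may be technical.

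Wnt proteins are secreted lipid-modified ligands. They bind Frizzled receptors, and with the coreceptors LRP5 and LRP6 they stop the breakdown of beta-catenin, which then acts with TCF/LEF factors on target genes. With ROR or RYK receptors and the planar polarity proteins, ligands such as WNT5A act without beta-catenin. R-spondins bind LGR receptors and keep the ubiquitin ligases ZNRF3 and RNF43 from removing Frizzleds from the cell surface. In the mouse gonad, WNT4 and RSPO1 drive the ovarian programme, which the testis keeps low, and WNT6 from Sertoli cells is known as a signal to undifferentiated spermatogonia.

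The libraries held 15407007 to 17564942 counts in the knockouts and 16097362 to 18372964 in the controls. Markers of the tissue were present in all 6 libraries, with the Sertoli cell gene Sox9 at 51 to 54.66 FPKM in the knockouts and 33.85 to 44.6 FPKM in the controls, and the germ cell gene Ddx4 at 22.97 to 29.48 and 59.1 to 73.25 FPKM. The transcript of Dcaf2, now called Dtl, was at 41.7, 43.8 and 51.5 CPM (counts relative to the library's size, scaled over all genes by TMM) in the knockouts and at 42.6, 50.3 and 77.4 CPM in the controls, and the groups overlapped, so this transcript did not separate the groups. All 20 pan-germ-cell genes were lower in the knockouts. Their log2 fold changes had a median of -1.46, with summed levels of 655 to 820 CPM in the knockouts against 1765 to 2324 CPM in the controls. Of 84 marker genes of other testis cell types, 32 were higher and 2 lower, where 11.1% and 13.9% of all tested genes were. By type, 12 of 22 Sertoli genes were higher and 1 lower. Higher were also 4 of 12 Leydig, 1 of 10 peritubular myoid, 7 of 12 stromal, 3 of 10 macrophage and 5 of 10 endothelial genes. Of 9 rete testis and surface genes, 1 was lower. The 2 lower genes were Dmrt1 of the Sertoli list (log2 fold change -0.53) and Epcam of the rete testis and surface list (-1.16). The part of germ cells in these 2 falls was not tested. The counts of higher genes moved widely when 1 library was left out. The 32 became 10 to 20 without control library 3 or any 1 knockout library, and 47 without control library 1. Sertoli genes ran from 2 to 18 higher, Leydig genes from 3 to 11, stromal genes from 3 to 8 and endothelial genes from 0 to 5. With scaling to Sertoli cell genes, 3 marker genes were higher and 7 lower, where 26 of all 14424 tested genes were higher and 4518 lower. That scaling sets the sum of 21 of the Sertoli markers, all but Dmrt1, equal in all libraries. The Sertoli counts under it are therefore partly fixed beforehand. In whole tissue, fewer cells of a type and less RNA per cell cannot be told apart. Control library 1 stood apart from the other controls, with Leydig cell genes summing to 1472 CPM against 916 and 889 CPM, and Sertoli cell genes to 9534 CPM against 7159 and 6994 CPM.

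Of the 33 genes, 25 had enough counts to be tested. In the knockouts 5 were higher (Wnt5a, Wnt2b, Fzd3, Fzd7 and Fzd8), 2 were lower (Rspo4 and Fzd10) and 18 were not called (edgeR quasi-likelihood test, adjusted p under 0.05 over all tested genes). Across all 14424 tested genes the same rule called 11.1% higher and 13.9% lower. Whether the members' shares differ from these was not tested. The groups did not overlap for 7 members that were higher and 3 that were lower, against 22.5% and 22.1% of all tested genes. The median log2 fold change of the 25 members was 0.13, and that of all tested genes 0.03. When values were scaled to Sertoli cell genes instead, which lowered the median of all genes to -0.39, 0 members were higher and 2 lower, and for all genes 26 were higher and 4518 lower. Total-count scaling gave 4 higher and 2 lower members. With 1 library left out, 1 to 7 members were higher, with 1 without knockout library 1, 2 without control library 3 and 3 without knockout library 2 or 3, and 1 was lower without control library 3 or any 1 knockout library.

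**Figure D1:**
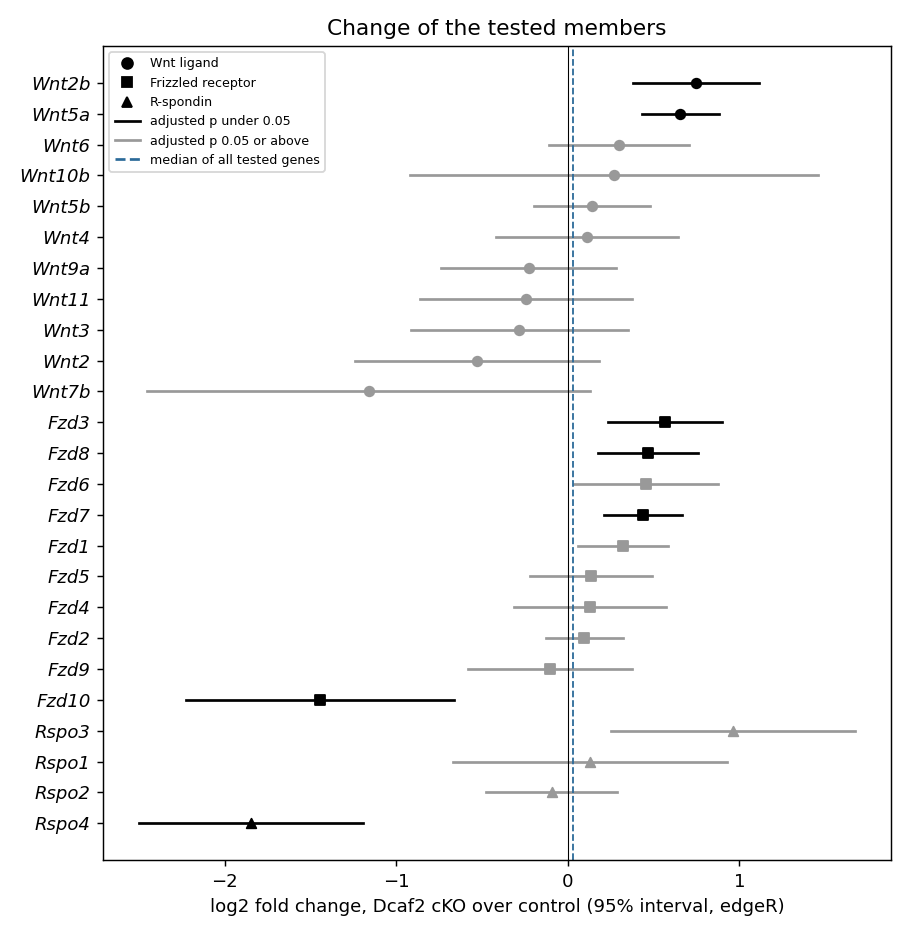
Log2 fold change (knockout over control) of the 25 tested members, with 95% intervals, ordered within each family; black marks the 7 genes past the threshold and the dashed line the median of all tested genes (0.03). Rspo4 (-1.85) and Fzd10 (-1.45) lie far to the left, while the 5 genes that were higher lie between 0.44 and 0.75.

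The ligand Wnt5a, which in many tissues steers cell polarity and movement, had the smallest p of the members that were higher. It stood at 148, 129 and 142 CPM in the knockouts and at 82.8, 87.6 and 96.1 CPM in the controls. Each knockout library lay above each control library, and neither group held a library far from the others. Its level rose 1.58-fold, which is 0.66 on the log2 scale with an SE of 0.10 and a 95% interval of 0.43 to 0.88 (edgeR adjusted p = 0.00307). The call was kept whichever library was left out, with log2 fold changes of 0.58 to 0.72. It was lost with scaling to Sertoli cell genes (0.23, edgeR adjusted p = 0.424). The antisense gene Gm2670 overlaps an exon of Wnt5a, and opposite-strand genes also overlap Wnt7b, Wnt11, Fzd5, Fzd6 and Rspo3. Whether the counting used strand is not stated, and without it the reads of such a pair cannot be told apart.

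Wnt2b, a ligand related to Wnt2 that acts through beta-catenin, was at 15.3, 13.6 and 14.7 CPM in the knockouts and 7.12, 10.3 and 8.59 CPM in the controls. It rose 1.68-fold, which is 0.75 on the log2 scale (SE 0.16, edgeR adjusted p = 0.0121), and the groups did not overlap. Without knockout library 1 its adjusted p was 0.0583 (0.71), and with scaling to Sertoli cell genes 0.356 (0.31).

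Wnt6 was the most abundant ligand by length-scaled level, at 69.98, 73.34 and 70.67 FPKM in the knockouts and 81.73, 45.91 and 55.01 FPKM in the controls. The knockout libraries lay close together, while control library 1 exceeded them all and the other controls lay below them. Its log2 fold change of 0.30 (95% interval -0.11 to 0.70) did not pass (edgeR adjusted p = 0.249). Without control library 1 it was 0.54 (adjusted p = 0.00134). With the trend on transcript length removed it was 0.42 (adjusted p = 0.0265). Control library 1 was also the control with the highest summed Sertoli and Leydig cell genes, and whether these bear on its Wnt6 level was not tested. Wnt4, the ovary-promoting ligand, was at 5.92, 5.11 and 5.71 CPM in the knockouts and at 6.86, 3.90 and 4.69 CPM in the controls, where library 1 was again the highest of all 6 (log2 fold change 0.11, 95% interval -0.42 to 0.64, edgeR adjusted p = 0.756).

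The remaining 7 tested ligands were low to moderate, and their intervals all included 0. Wnt5b, the close relative of Wnt5a, was at 18.2, 13.3 and 14.4 CPM in the knockouts and 14.8, 13.6 and 13.1 CPM in the controls, a log2 fold change of 0.14 (95% interval -0.20 to 0.48). Its difference from the change of Wnt5a was not tested. Wnt9a was at 4.64 to 7.54 CPM in the knockouts and 6.17 to 8.53 CPM in the controls (-0.23). Wnt3, at 1.64 to 1.69 CPM in the knockouts and 1.48 to 2.45 CPM in the controls, was at -0.28, and Wnt11, at 1.196 to 1.35 and 1.28 to 1.64 CPM, was at -0.24. Wnt2 lay lower in each knockout library (0.664 to 0.910 CPM) than in any control (0.962 to 1.17 CPM), but on 95 counts in all its log2 fold change of -0.53 did not pass (edgeR adjusted p = 0.242). Wnt7b had 16, 3 and 5 counts in the knockouts and 14, 23 and 24 in the controls (-1.16, 95% interval -2.45 to 0.13), and it overlaps the antisense gene AU022754. Wnt10b had 4, 12 and 13 counts in the knockouts and 10, 5 and 12 in the controls (0.27).

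The other 8 ligands were too low to test. Over all 6 libraries Wnt9b had 31 counts, Wnt10a 28, Wnt7a 27, Wnt8b 19, Wnt3a 12, Wnt16 4 and Wnt8a 3. Wnt1, the founding member of the family, had 0 counts among 100965939, which allows a level of up to 0.0297 CPM by counting error alone. By group the knockouts held 3, 6 and 3 counts of Wnt10a against 9, 2 and 5 in the controls, 4, 0 and 3 of Wnt7a against 3, 7 and 10, and 3, 5 and 3 of Wnt9b against 3, 10 and 7. These counts overlapped between the groups for each of the 8 genes.

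As a share of the summed FPKM of all 19 ligands, Wnt6 made up 61.6 ± 2.68% in the knockouts and 63.1 ± 6.97% in the controls, and Wnt5a 24.2 ± 1.37% and 20.04 ± 3.97% (mean ± SD, n = 3 each). Wnt5b, Wnt2b, Wnt9a and Wnt4 followed in the same order in both groups. The remaining ligands were at or below 1.21% in every library. The order from Wnt6 to Wnt4 was the same by mean CPM share, but the wide lead of Wnt6 over Wnt5a rests on length scaling. In CPM terms the 2 were closer, with 44.7% and 41.3% of the ligand total in the knockouts and 47.6% and 35.3% in the controls. In knockout library 1 Wnt6 held 42.2% and Wnt5a 42.5%.

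**Figure D2:**
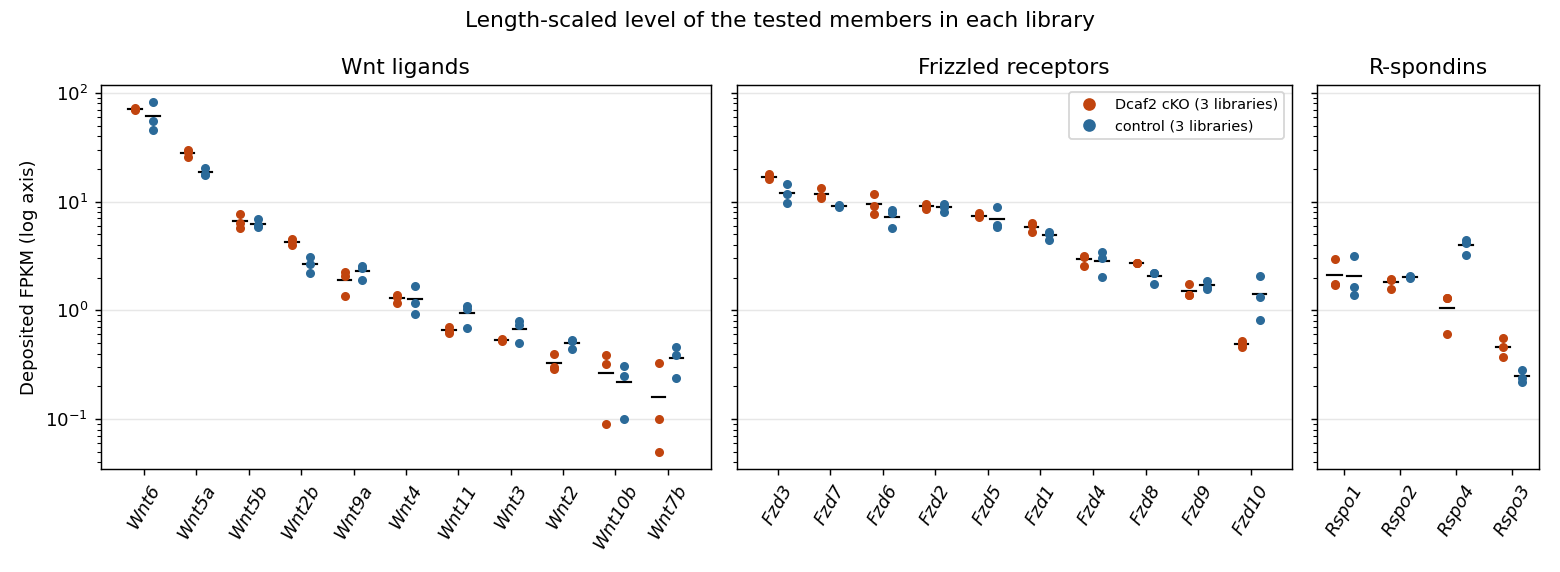
Deposited FPKM (log axis) of the 25 tested members in each library, knockout at the left and control at the right of each gene; bars are group means of 3 libraries and genes are ordered by their knockout mean. Wnt6 and Wnt5a stand above the other ligands, Frizzled levels run without a wide gap from Fzd3 to Fzd9, and Rspo4 leads the R-spondins in the controls only.

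Among the receptors, Fzd3, which acts in axon guidance and planar polarity, was the most abundant by FPKM, at 17.11, 17.85 and 16.08 in the knockouts and 9.72, 14.46 and 11.81 in the controls. In CPM it stood at 222, 234 and 209 in the knockouts and 120, 184 and 146 in the controls, without overlap, and rose 1.48-fold, which is 0.57 on the log2 scale (SE 0.15, edgeR adjusted p = 0.0232). Leaving out control library 3, or 1 of the knockout libraries, ended the call (adjusted p = 0.0596 to 0.0944). It was also lost at 0.12 with scaling to Sertoli cell genes (adjusted p = 0.743), and at 0.26 with the length trend removed (adjusted p = 0.0596).

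Fzd7, a receptor of beta-catenin signalling in several stem cells, was at 61.1, 50.4 and 52.3 CPM in the knockouts and 39.0, 41.2 and 40.6 CPM in the controls. The controls were tightly grouped and all knockouts lay above them (log2 fold change 0.44, SE 0.10, edgeR adjusted p = 0.0149). Fzd7 no longer passed when control library 3 was left out (0.45, adjusted p = 0.0558), nor when knockout library 1 was (0.36, adjusted p = 0.0713). With scaling to Sertoli cell genes its value was 0.01 (adjusted p = 0.963). Fzd8, a receptor with high affinity for Wnt ligands, was at 16.5, 16.7 and 16.6 CPM in the knockouts and 12.8, 10.5 and 12.7 CPM in the controls (log2 fold change 0.47, SE 0.13, edgeR adjusted p = 0.0297). Its call was the least stable of the 7. It was lost without any 1 library other than control library 1 (adjusted p = 0.0537 to 0.104), with upper-quartile, total-count or Sertoli cell scaling (0.0531, 0.0603 and 0.837) and with the length trend removed (0.30, 0.168).

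Fzd10 fell. It had 25, 26 and 26 counts in the knockouts and 49, 78 and 107 in the controls, or 1.63, 1.53 and 1.73 CPM against 2.59, 4.35 and 6.43 CPM. The knockout libraries were nearly equal, while the controls spread widely above them. The level was 2.72-fold lower in the knockouts (log2 fold change -1.45, SE 0.35, 95% interval -2.23 to -0.67, edgeR adjusted p = 0.0174). Leaving out control library 3 gave -1.09 (adjusted p = 0.0637), and leaving out 1 of the knockout libraries gave an adjusted p of 0.0559 to 0.0726, so the call rests on all of these. With scaling to Sertoli cell genes it was kept, at -1.92.

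The other 6 Frizzled genes did not pass. Fzd1 was at 26.9, 22.9 and 26.0 CPM in the knockouts and 21.4, 18.6 and 20.6 CPM in the controls, without overlap (log2 fold change 0.32, edgeR adjusted p = 0.0713). Leaving out control library 1 brought it past the threshold (0.34, adjusted p = 0.0429). Fzd6, a polarity receptor of skin and hair, ranged from 32.6 to 50.2 CPM in the knockouts and from 23.0 to 33.2 CPM in the controls (0.46, 95% interval 0.03 to 0.88, edgeR adjusted p = 0.103). Fzd5 was at 53.5, 49.7 and 49.2 CPM in the knockouts and 38.8, 59.3 and 40.4 CPM in the controls (0.14), and without control library 2, its highest control, it was at 0.35 and passed (adjusted p = 0.0281). Fzd4, the receptor of Norrin in blood vessels, was at 17.9 to 21.7 CPM in the knockouts and 13.1 to 23.0 CPM in the controls (0.13, 95% interval -0.31 to 0.57). Fzd2 (0.10, 95% interval -0.13 to 0.32) and Fzd9 (-0.10, 95% interval -0.58 to 0.38) had the smallest differences. As a group, 3 of 10 Frizzled genes were higher and 1 lower, and their log2 fold changes centred on a median of 0.23, where 11.1% of all tested genes were higher and 13.9% lower. With 1 library left out, 0 to 4 were higher and 0 to 1 lower: 0 were higher without knockout library 1 or control library 3, and 1 without knockout library 2 or 3. The median was -0.20 with scaling to Sertoli cell genes, where 0 were higher and 1 lower. Under that scaling 26 of all 14424 tested genes were higher and 4518 lower.

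R-spondin genes were low, and Rspo4 had the largest change of all 25 tested members. RSPO4 is known in humans for its part in nail formation. It had 48, 25 and 47 counts in the knockouts and 141, 190 and 160 in the controls, or 3.12, 1.47 and 3.12 CPM against 7.44, 10.6 and 9.62 CPM. Each control library held more than each knockout library by a wide margin. It was 3.60-fold lower in the knockouts (log2 fold change -1.85, SE 0.29, 95% interval -2.50 to -1.19, edgeR adjusted p = 0.0034). The call was kept under every alternative run, with -1.56 to -2.01 when 1 library was left out and -2.28 when scaled to Sertoli cell genes. The pan-germ-cell genes, with log2 fold changes from -2.15 to -1.16, moved in the same direction, and their part in the fall of Rspo4 and Fzd10 was not tested.

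Rspo3, an R-spondin of blood vessels and stroma, lay higher in each knockout library (1.76, 1.17 and 1.46 CPM) than in any control (0.844, 0.725 and 0.661 CPM), on 109 counts in all. Its log2 fold change of 0.96 (SE 0.31, 95% interval 0.25 to 1.67) just missed the threshold (edgeR adjusted p = 0.0523), and it passed with the stricter filter (adjusted p = 0.0463) and with the length trend removed (adjusted p = 0.0341). Rspo1, the ovary-promoting R-spondin, was at 5.53, 3.29 and 3.19 CPM in the knockouts and 2.90, 2.51 and 5.59 CPM in the controls, where 1 library of each group was high (0.13, 95% interval -0.67 to 0.93). These were knockout library 1 and control library 3. Their rete testis and surface genes summed to 92.0 and 95.6 CPM, against 59.5 to 69.0 CPM in the others. These sums depend in part on Epcam, which was lower in the knockouts (19.2, 20.2 and 21.5 CPM) than in the controls (43.1, 45.4 and 48.0 CPM). Whether the rete testis and surface genes bear on Rspo1 was not tested. Rspo2, known in lung and limb development, was at 6.24, 5.11 and 6.18 CPM in the knockouts and 6.28, 6.36 and 6.07 CPM in the controls (-0.10, 95% interval -0.48 to 0.29). By FPKM, Rspo4 made up 19.1 ± 5.07% of the R-spondin total in the knockouts and 48.0 ± 6.44% in the controls, so that Rspo1, at 38.7 ± 6.17% and 24.1 ± 8.07%, led in the knockouts. These shares restate the levels above and were not tested.

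The promoters of called members are shown because genes that moved together can be compared by the letters before their start. RefSeq (GRCm38.p6) gave promoters for 23 of the 33 members, with Rspo4 and Fzd10 among those that fell and Wnt2b and Fzd7 among those that rose. The called members Wnt5a, Fzd3 and Fzd8 had no promoter there and are not shown. Each window runs from 250 bases before to 50 after the gene's start, 5′ to 3′ on the gene's strand, and capitals mark the motifs searched on both strands.
Rspo4, chr2:151842677-151842976, plus strand: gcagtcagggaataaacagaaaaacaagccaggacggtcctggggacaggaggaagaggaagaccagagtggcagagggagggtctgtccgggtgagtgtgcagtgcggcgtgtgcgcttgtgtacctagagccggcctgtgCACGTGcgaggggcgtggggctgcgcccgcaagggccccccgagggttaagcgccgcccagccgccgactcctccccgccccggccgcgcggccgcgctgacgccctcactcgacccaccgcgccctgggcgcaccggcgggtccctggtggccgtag
Fzd10, chr5:128600856-128601155, plus strand: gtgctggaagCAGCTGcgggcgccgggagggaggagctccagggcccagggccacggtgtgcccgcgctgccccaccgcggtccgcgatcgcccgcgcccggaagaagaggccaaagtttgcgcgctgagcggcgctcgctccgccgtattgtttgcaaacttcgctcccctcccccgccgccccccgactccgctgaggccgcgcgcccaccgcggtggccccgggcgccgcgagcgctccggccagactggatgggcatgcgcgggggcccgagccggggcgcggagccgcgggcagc
Wnt2b, chr3:104961660-104961959, minus strand: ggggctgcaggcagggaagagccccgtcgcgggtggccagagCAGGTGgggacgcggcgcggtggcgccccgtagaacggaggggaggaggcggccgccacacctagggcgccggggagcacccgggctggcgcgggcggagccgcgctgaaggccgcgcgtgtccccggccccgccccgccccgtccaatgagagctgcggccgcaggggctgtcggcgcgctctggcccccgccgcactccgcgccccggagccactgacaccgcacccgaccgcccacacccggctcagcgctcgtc
Fzd7, chr1:59481897-59482196, plus strand: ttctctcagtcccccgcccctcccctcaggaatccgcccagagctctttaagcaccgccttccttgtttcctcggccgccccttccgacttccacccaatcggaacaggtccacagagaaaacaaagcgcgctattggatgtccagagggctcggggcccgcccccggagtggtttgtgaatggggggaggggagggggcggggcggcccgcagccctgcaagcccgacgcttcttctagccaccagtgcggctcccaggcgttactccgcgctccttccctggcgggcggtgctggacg

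The motifs were the core of TCF/LEF sites (TCAAAG), the E-box of basic helix-loop-helix factors (CANNTG) and the GATA site (AGATAA). In the 4 windows E-boxes were the only motif found, so none overlapped another. Rspo4, Fzd10 and Wnt2b each held 1 E-box and Fzd7 held 0. An E-box stands in 72.3% of all 32851 promoters of the table, so its presence here is the common case. No TCF/LEF core or GATA site was in the 4 windows, and 16% and 11.2% of all promoters hold them. The windows were rich in G and C, with 71.0%, 77.7%, 79.7% and 66.7% for Rspo4, Fzd10, Wnt2b and Fzd7, where the median promoter has 52.7%. This was not particular to called members. Windows of tested members that were not called ran from 53.0% for a window of Wnt5b to 84.3% for Wnt4, with Wnt6 at 76.7%. The untested Wnt8b and Wnt3a were at 48.3% and 86.3%.

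Genes that release, bind or transmit Wnt signals were described from 8 lists of 81 genes outside the 3 families, of which 75 were tested. In the knockouts 13 of them were higher and 10 lower, where 11.1% and 13.9% of all tested genes were. With 1 library left out, 1 to 16 were higher and 3 to 14 lower, and the higher genes numbered 1 when knockout library 1 was the one left out, 3 for knockout library 2 and 6 for knockout library 3 or control library 3. Without control library 3 or any 1 knockout library, 3 to 5 were lower. With scaling to Sertoli cell genes 0 were higher and 18 lower, where 26 of all 14424 tested genes were higher and 4518 lower. Wls, the carrier that brings Wnt proteins to the cell surface, rose to 125, 122 and 115 CPM in the knockouts, against 96.6, 81.1 and 93.7 CPM in the controls (log2 fold change 0.42, SE 0.10, edgeR adjusted p = 0.0167). This call was not kept without control library 3 or knockout library 1 or 2 (adjusted p = 0.0532 to 0.078), nor with scaling to Sertoli cell genes (log2 fold change 0.0037, adjusted p = 0.989).

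Of 10 coreceptors and alternative receptors, 3 were higher and 1 lower, where 11.1% and 13.9% of all tested genes were. Ror1 and Ror2, receptor kinases for WNT5A, were both higher. Ror1 was at 17.6, 16.6 and 17.1 CPM in the knockouts and 8.71, 10.8 and 9.98 CPM in the controls (0.80 on the log2 scale, SE 0.13, edgeR adjusted p = 0.00429), and Ror2 was at 0.53 (adjusted p = 0.0227). Lrp4, a relative of LRP5 and LRP6 that restrains the pathway, was at 0.58 (adjusted p = 0.0213). Ror1 passed whichever library was left out. Ror2 did not pass without knockout library 1 or 3 (adjusted p = 0.0826 and 0.0908), nor Lrp4 without control library 3 or 1 of the knockout libraries (0.0535 to 0.0972) or with the length trend removed (0.0673). None of the 3 passed with scaling to Sertoli cell genes (log2 fold changes 0.37, 0.12 and 0.15 for Ror1, Ror2 and Lrp4). Lgr5, an R-spondin receptor and target gene, was at 1.301, 1.41 and 1.93 CPM in the knockouts and 2.90, 2.73 and 2.64 CPM in the controls (-0.84, edgeR adjusted p = 0.0418), a call that was lost without any 1 library (adjusted p = 0.0559 to 0.153) and when no filter was applied (0.0508).

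Of 13 tested planar cell polarity genes, 4 were higher and 0 lower, where 11.1% and 13.9% of all tested genes were. The median of their log2 fold changes was 0.30, against 0.03 for all genes. Prickle1 (0.41, edgeR adjusted p = 0.00981), Prickle2 (0.58, adjusted p = 0.0137) and Vangl1 (0.40, adjusted p = 0.017) are core polarity genes of the cytoplasm and membrane. The count ran from 0 to 5 with 1 library left out. It was 0 with scaling to Sertoli cell genes, where the median was -0.14 and Prickle1 (-0.013) and Vangl1 (-0.026) changed sign. Without knockout library 1 or 2 none of these 3 genes passed (adjusted p = 0.051 to 0.0905), and without control library 3 neither Prickle2 nor Vangl1 did (0.0577 for each). Celsr1, also called, had the largest change of the list (0.67, edgeR adjusted p = 0.0319). It did not pass without knockout library 1 or 2 either, where 0 polarity genes were higher. Stroma markers, of which 7 of 12 were higher (median 0.41), and Sertoli markers, of which 12 of 22 were higher and 1 lower (median 0.46), moved in the same direction as Wnt5a, Wnt2b, the 3 higher Frizzleds, Ror1, Ror2 and Wls. Stroma genes summed to 11386 to 11767 CPM in the knockouts and 7382 to 8910 CPM in the controls, and Sertoli genes to 9531 to 10790 CPM and 6994 to 9534 CPM. Leydig markers (4 of 12 higher, median 0.68), macrophage markers (3 of 10, median 0.46) and endothelial markers (5 of 10, median 0.39) moved likewise. Peritubular myoid markers had a median of 0.06, with 1 of 10 higher. Rete testis and surface markers had a median of 0.89, with 0 of 9 higher and 1 lower. The part of these cell types in the increases was not tested.

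Inhibitors were mixed. Of the 10 tested secreted inhibitors, 1 was higher and 2 lower, where 11.1% and 13.9% of all tested genes were. Sfrp1, which binds Wnt proteins outside the cell and had the highest FPKM of them (a mean of 39.2 in the knockouts and 30.4 in the controls), rose to 182, 165 and 180 CPM in the knockouts, against 122, 118 and 149 CPM in the controls (log2 fold change 0.44, edgeR adjusted p = 0.0216). It did not pass without any 1 knockout library (adjusted p = 0.0638 to 0.0899) or with scaling to Sertoli cell genes (0.0057 on the log2 scale). Draxin, a secreted antagonist known in axon guidance (-1.87, adjusted p = 0.0239), and Notum (-1.83, adjusted p = 0.0259), which removes the lipid of Wnt proteins, also fell, on 93 and 102 counts in all. Both calls were lost without knockout library 2 or 3, and without control library 3 for Draxin and control library 2 for Notum (adjusted p = 0.0633 to 0.101). Dkk3 did not pass (-0.11, adjusted p = 0.635). Of 7 tested genes listed for membrane inhibition or receptor turnover, 1 was higher, the glypican gene Gpc4 (0.32, adjusted p = 0.0378). Its place on this list does not make it an inhibitor. Gpc4 was at -0.11 with scaling to Sertoli cell genes. It passed in the leave-one-out fits only without control library 1 (adjusted p elsewhere 0.058 to 0.159). It also did not pass with upper-quartile scaling (adjusted p = 0.0587), total-count scaling (0.0844) or no filter (0.058).

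Inside the cell, 3 of 15 genes of the destruction complex and Dishevelled were higher and 2 lower. With 1 library left out, 0 to 5 were higher and 0 to 4 lower, and total-count scaling gave 1 higher. These counts stand against 11.1% higher and 13.9% lower over all tested genes. Ctnnb1, which encodes beta-catenin, was at 1025, 1055 and 1018 CPM in the knockouts and 806, 871 and 819 CPM in the controls (0.31 on the log2 scale, SE 0.09, edgeR adjusted p = 0.0317), but at -0.12 with scaling to Sertoli cell genes. Amer1, which helps APC to reach the membrane, was at 0.76 (adjusted p = 0.0124), and without knockout library 1 at 0.73 (adjusted p = 0.0557). The change of Ctnnb1 did not pass when control library 3 or 1 of the knockout libraries was left out (adjusted p = 0.0871 to 0.144), nor with total-count scaling (0.0628). Of 13 TCF/LEF factors and their coactivators and repressors, 0 were higher and 3 lower. Lef1 fell to 1.63, 2.00 and 1.53 CPM in the knockouts, against 5.38, 6.19 and 6.19 CPM in the controls (-1.78, SE 0.22, edgeR adjusted p = 0.00127). Tle3, a corepressor, was at -0.76 (adjusted p = 0.00406) and Pygo2, a coactivator, at -0.32 (adjusted p = 0.0288). Lef1 and Tle3 passed under every alternative run, whereas Pygo2 did not without control library 3 or 1 of the knockout libraries (adjusted p = 0.0929 to 0.132). Transcript levels do not show the amount of beta-catenin protein, on which the pathway acts.

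Of 14 tested genes that are common targets of beta-catenin, 6 were lower and 0 higher. Across all tested genes 13.9% were lower and 11.1% higher. The list's median was -0.31, against 0.03 for all genes. Ccnd1, a D-type cyclin gene that spermatogonia also use, fell to 27.4, 24.0 and 29.4 CPM in the knockouts, against 53.6, 71.7 and 73.9 CPM in the controls (log2 fold change -1.30, SE 0.14, edgeR adjusted p = 0.000777). It passed under every alternative run. Lef1, Notum, Lgr5, the transcription factor gene Sp5 (-1.41, adjusted p = 0.0172) and the feedback inhibitor gene Nkd1 (-0.47, adjusted p = 0.0216) were the others. Of these, Lef1, Notum, Lgr5 and Nkd1 were already counted as lower in the lists above. Sp5 did not pass without control library 3 or 1 of the knockout libraries (0.0605 to 0.0753), nor Nkd1 without control library 3 or knockout library 1 or 2 (0.0836 to 0.104). Axin2, the most general target, was at 25.2, 20.1 and 23.4 CPM in the knockouts and 24.1, 32.3 and 34.4 CPM in the controls, and the groups overlapped (-0.40, edgeR adjusted p = 0.085). Axin2 did pass once control library 1 was left out (-0.57, adjusted p = 0.00394), with scaling to Sertoli cell genes (-0.85, adjusted p = 0.0256) and with the length trend removed (-0.39, adjusted p = 0.0471). The number of lower targets was 2 to 7 with 1 library left out. The pan-germ-cell genes moved in the same direction, and their part in these falls was not tested.

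**Figure D3:**
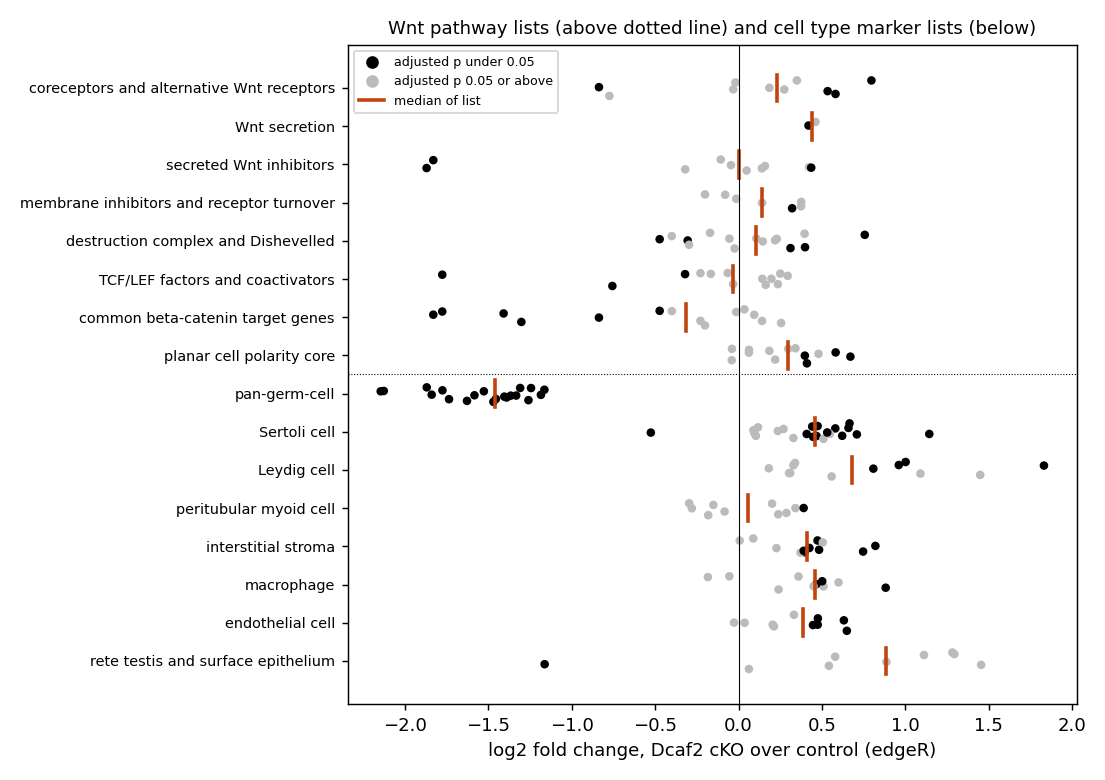
Log2 fold change (knockout over control) of each tested gene in the 8 Wnt pathway lists and the 8 cell type marker lists; black points passed the threshold and the orange bar is the list's median. Target genes have a median of -0.31 and polarity genes of 0.30, beside -1.46 for pan-germ-cell genes and 0.41 for interstitial stroma genes. The medians of Sertoli, Leydig, macrophage and endothelial genes are 0.46, 0.68, 0.46 and 0.39.

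**Figure D4:**
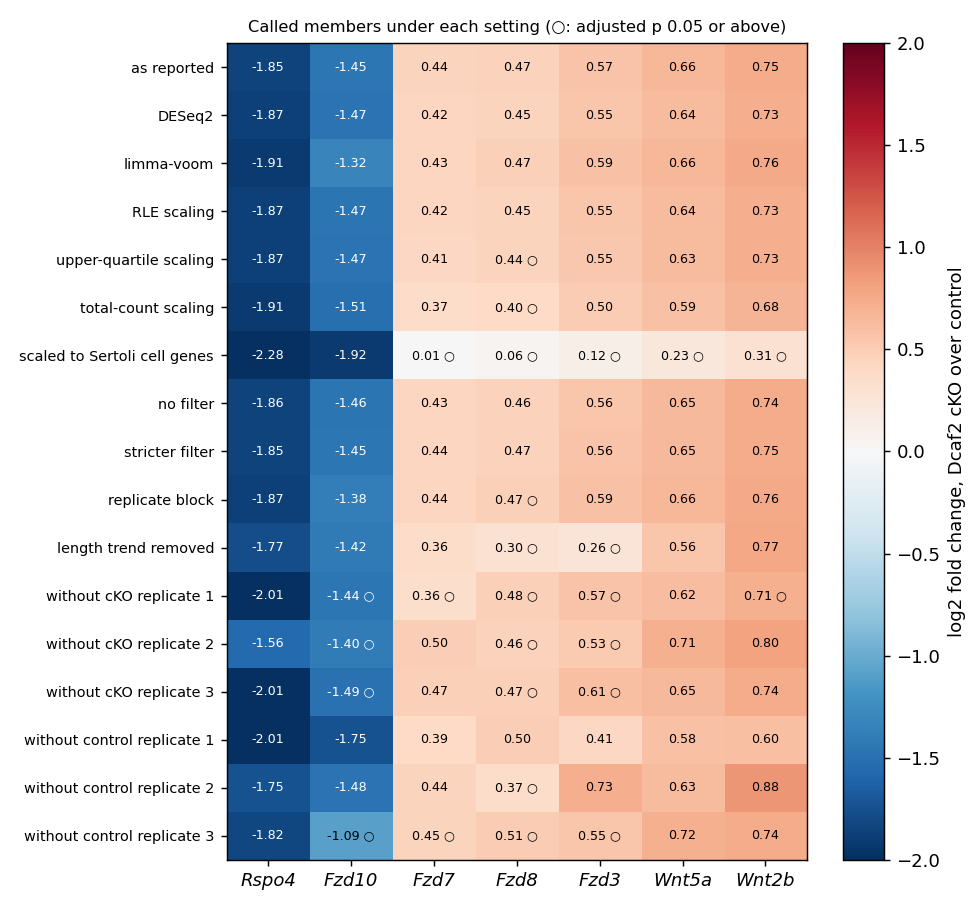
Log2 fold change (knockout over control) of the 7 called members under each setting, printed in each cell; an open circle marks an adjusted p of 0.05 or above. Rspo4 has no circle in any setting, Wnt5a has 1 and Fzd8 has the most.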

How the data were processed

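RNA of whole testes (3 Dcaf2 cKO and 3 control libraries) was sequenced. The authors deposited 1 table, in which each gene has counts and FPKM values for the 6 libraries. StringTie 1.3.1 and RSEM appear in the submitters' processing notes, with no role for either. The aligner, genome build, annotation and strand setting were not given in the sources used here. The deposited counts are whole, and were taken as estimated counts rounded by the authors, because an FPKM above 0 stood beside a zero count for 3 to 21 genes in each library. The FPKM values deposited by the authors are scaled for length and depth and served only to compare levels between genes.

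Genes were kept by filterByExpr (minimum count 10), which left 14424; those left out held 0.063% of counts. Counts were scaled by TMM and tested with edgeR 4.0.16 (glmQLFit, glmQLFTest, R 4.3.3) without covariates, with Benjamini-Hochberg adjustment and a threshold of 0.05. SE is the log2 fold change divided by the square root of F. The procedure was tested on simulated data. No 2 libraries were identical. Symbols come from the reference table, and all 33 member symbols matched it. Exon overlaps come from GENCODE M21, used for names only. Alternatives were DESeq2 1.42.0, limma-voom (limma 3.58.1), other scalings (RLE, upper-quartile, total count, the sum of 21 Sertoli cell genes), other filters, a replicate block, each library left out, and, added after seeing the data, removal of a trend on transcript length (lowess, span 0.3). Every member with at least 10 counts is named, and of each pathway list the called genes with the smallest p, at most 3, or the 1 with the smallest p, plus Ctnnb1, Axin2, Lgr5, Sfrp1, Dkk3 and Lef1. Celsr1 was added afterwards, for its largest change among the polarity genes. Members and lists were chosen with earlier results of these data known.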

Additional observations from a re-analysis of the deposited data

How the results depend on the processing

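Under DESeq2, limma-voom, scaling by RLE, by total count or by the upper quartile, both other filters and the replicate block, the counts over all genes, the members, the pathway genes together and the somatic markers together stayed within 1.5 times. Single lists did not always. Total-count scaling gave 1 higher gene of the destruction complex (3 as reported), 2 lower coreceptors (1), 1 higher macrophage gene (3), 3 higher endothelial genes (5) and 1 lower myoid gene (0). The list of membrane inhibitors and receptor turnover had 0 higher (1) with no filter, with the block and with scaling by total count or upper quartile. Upper-quartile scaling also gave 1 higher macrophage gene. With no filter, 0 coreceptors (1) and 1 gene of the destruction complex (2) were lower. The stricter filter gave 1 lower secreted inhibitor (2) and 1 higher R-spondin (0), and DESeq2 gave 1 higher rete testis gene (0). With scaling to Sertoli cell genes, 26 genes were higher and 4518 lower (1599 and 2008 as reported), 0 members were higher (5), 0 pathway genes were higher and 18 lower (13 and 10), and 3 somatic marker genes were higher and 7 lower (32 and 2). With the length trend removed, 2933 genes and 51 somatic marker genes were higher. With 1 library left out, 452 to 2392 genes were higher and 903 to 2863 lower, 1 to 7 members higher and 1 to 2 lower, 1 to 16 pathway genes higher and 3 to 14 lower, and 10 to 47 somatic marker genes higher and 2 to 3 lower. Leaving out a library leaves fewer samples for the test; beyond that, the cause was not tested.

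Scaling to Sertoli cell genes lowers every value by about the shift of the median of all genes (0.03 as reported, -0.39), and turned the sign of Fzd1 (-0.089), Fzd2 (-0.31), Fzd4 (-0.32), Fzd5 (-0.30), Fzd6 (-0.0022), Rspo1 (-0.32), Wnt4 (-0.26), Wnt5b (-0.27), Wnt6 (-0.080), Wnt10b (-0.13), Gpc4 (-0.11), Ctnnb1 (-0.12), Prickle1 (-0.013) and Vangl1 (-0.026). Of these, Gpc4, Ctnnb1, Prickle1 and Vangl1 had been called. The length trend turned Fzd4 (-0.032) and Fzd5 (-0.035). With 1 library left out, values ran from -0.094 to 0.30 for Fzd4, -0.17 to 0.56 for Rspo1, -0.048 to 0.62 for Wnt10b and -0.063 to 0.35 for Wnt4, none of which was called.

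With the replicate number as a block, 1248 genes were higher and 1574 lower, 4 members higher and 2 lower, and 9 pathway genes higher and 7 lower (13 and 10). The calls ended by the block were Fzd8 (adjusted p = 0.0634), Lrp4 (0.0512), Vangl1 (0.0521), Pygo2 (0.0673), Lgr5 (0.0803), Gpc4 (0.0815) and Ctnnb1 (0.0848) among the genes named. By list, the block gave 0 lower coreceptors, 1 lower gene of the destruction complex, 1 higher macrophage gene, 3 higher endothelial genes and 7 higher Leydig genes (4). Deviations of same-numbered libraries correlated at -0.08, -0.10 and 0.09, and those of differently numbered libraries at -0.25 to 0.25. With 3 libraries per group, these values cannot tell whether the numbers pair the libraries. Depth limits the 8 untested ligands and those under about 1 CPM.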
